A study of Mus musculus with 272 samples.

Results

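The genes described here encode the TGF-β, BMP and myostatin signalling pathway in muscle stem cells (MuSCs) of the mouse. They are 36 of the 21938 protein-coding genes annotated in GENCODE M21 on GRCm38.p6 (mm10). The members were matched by gene name, from a list drawn up with earlier results of these data known, and all 36 were found. By role they are 12 secreted ligands, 11 cell surface receptors, 8 Smads and 5 extracellular antagonists.

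TGF-β, activin, myostatin and BMP ligands bind complexes of type I and type II receptor kinases, which phosphorylate the receptor-regulated Smads. These join Smad4, enter the nucleus and bind DNA, while Smad6 and Smad7 inhibit the pathway inside the cell and follistatin, noggin, chordin and gremlin trap ligands outside it. In skeletal muscle, myostatin is known as a brake on muscle mass, TGF-β ligands restrain the differentiation of myogenic cells, and BMP signalling supports the expansion of MuSCs.

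The cells were GFP+ MuSCs sorted from the hindlimb muscle of Pax7Cas9 mice, in which Cre under the control of Pax7 switches on Cas9 and GFP, so that every library carries this genotype. Open chromatin was mapped by ATAC-seq, and ChIP-seq was used for H3K4me3, a mark of promoters, H3K27ac, found at promoters and enhancers in use, and H3K27me3, the mark left by Polycomb repression. Each feature has 2 replicates, and the result is 8 peak lists of 1 library each. The labels of these libraries give no age, sex or strain, do not say whether the replicates came from separate mice, and set no treatment against a control, so the comparisons are between features, roles and the remaining protein-coding genes.

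A promoter here is the stretch within 3 kb of a start site of any annotated transcript of the gene, and a gene counts as marked when both replicates list a peak that shares at least 1 bp with its promoter. Fold enrichment is the authors' value at the peak summit over the local background, and it is compared only within a list, since the depth behind a peak is unknown. A promoter without a listed peak counts as unmarked whatever the reason. RNA was not measured here. Because the cells were assayed in bulk, 2 marks listed at 1 promoter may lie on the same chromosome or in different cells, which cannot be told apart.

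The lists hold 140937 and 94574 ATAC-seq peaks, 20519 and 18006 H3K4me3 peaks, 24217 and 18589 H3K27ac peaks, and 6080 and 10485 H3K27me3 peaks in replicates 1 and 2. The H3K27me3 lists reach down to a −log10 q of 0 and 0.0295 and the other lists only to between 1.32 and 2.02, so that the H3K27me3 lists hold weaker peaks. Of 13 markers of MuSCs, 12 had H3K27ac at the promoter in both replicates, against 46.6% of all protein-coding genes. Among the 12 was *Chrdl2*, which is also a member. The counts were 3 of 10 for markers of fibro-adipogenic cells, 1 of 10 of endothelial cells, 1 of 9 of blood cells and 3 of 10 of myofibres.

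Most of the pathway had open promoters with H3K4me3 and H3K27ac, and the roles differed in where H3K27ac was missing and H3K27me3 present. ATAC-seq peaks were listed at 34 of 36 member promoters (94.4%), against 67.8% of all protein-coding genes. H3K4me3 marked 33 (91.7%, against 60.8%), H3K27ac 24 (66.7%, against 46.6%) and H3K27me3 4 (11.1%, against 4.81%). In combination, 24 members had H3K4me3 and H3K27ac without H3K27me3, a state held by 45.4% of protein-coding genes, and 7 had H3K4me3 alone, against 11.5%. *Fst* and *Nog* had H3K4me3 with H3K27me3, against 3.85% of genes, and *Bmp5*, *Bmp7* and *Grem1* lacked H3K4me3 in at least 1 replicate, against 39.2%. No test of these shares was run, since the list was drawn up with earlier results of these data known.

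**Figure D1:**
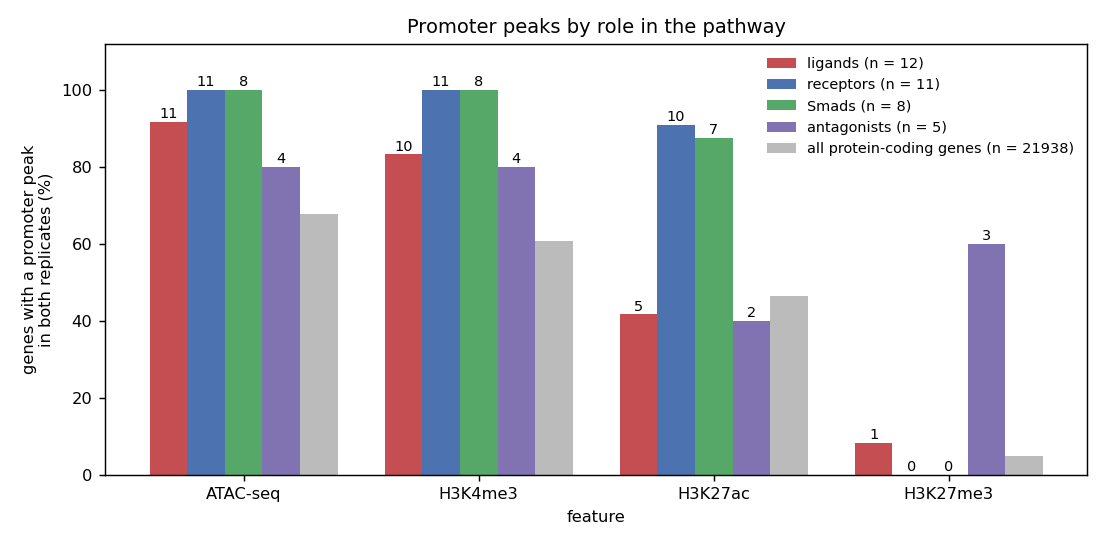
Share of genes (y axis, %) with a promoter peak in both replicates for each feature (x axis), as coloured bars for the 4 roles with the number of genes above each bar, and as grey bars for all protein-coding genes. H3K27ac was listed at 10 of 11 receptors and 7 of 8 Smads but at 5 of 12 ligands and 2 of 5 antagonists, and H3K27me3 at 3 of 5 antagonists.

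The counts differed between roles. All 11 receptors and all 8 Smads had ATAC-seq and H3K4me3 peaks in both replicates, and H3K27ac was listed at 10 of 11 receptors (90.9%) and 7 of 8 Smads (87.5%), with only *Bmpr1b* and *Smad9* left out. Among the secreted proteins H3K27ac was less frequent, with 5 of 12 ligands (41.7%) and 2 of 5 antagonists (40%), shares near the 46.6% of all genes. In replicate 1 alone it was listed at 8 of 12 ligands, against 50.1% of all genes, while the counts of the other roles stayed the same. H3K27me3 was listed in both replicates at 3 of 5 antagonists (60%), at 1 of 12 ligands (8.33%) and at none of the receptors or Smads, against 4.81% of all genes. The counts of ligands, receptors and Smads are too small to be told apart from that share. At a −log10 q of at least 5, no antagonist was marked by H3K27me3, against 0.501% of all protein-coding genes. The difference between roles was not tested.

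**Figure D2:**
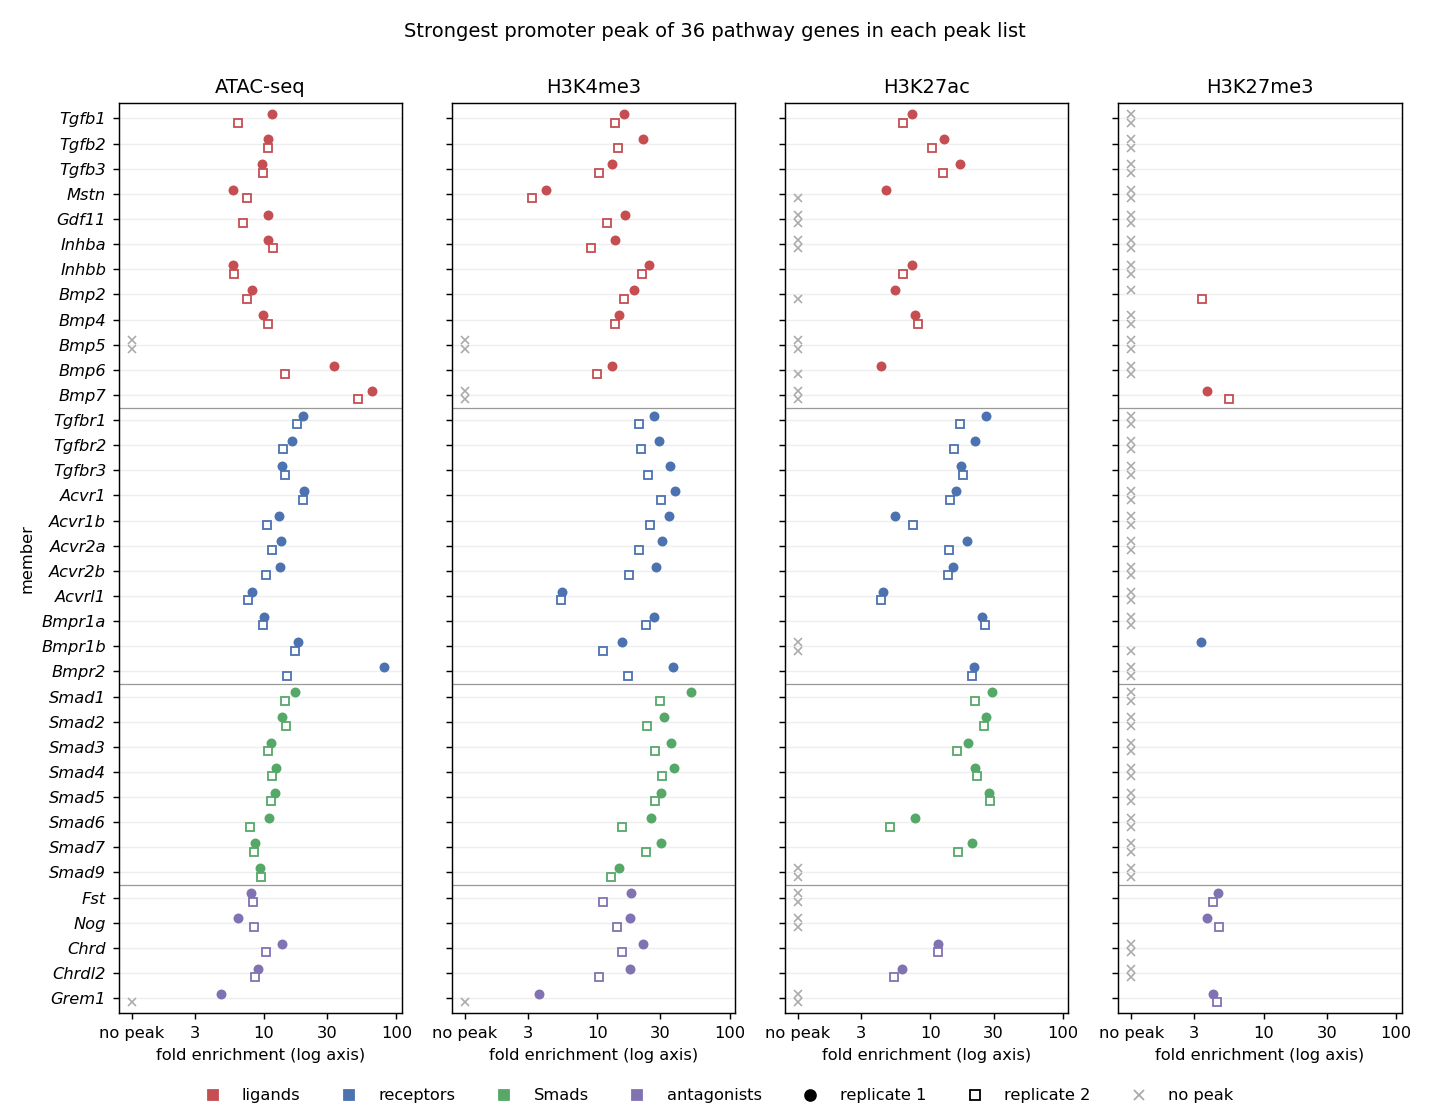
Fold enrichment (x axis, log scale) of the strongest promoter peak of each of the 36 members (y axis, ordered by role), with 1 panel per feature. Filled circles are replicate 1, open squares replicate 2, and grey crosses mean that no peak was listed. By the lower replicate H3K27ac is highest at *Smad5*, *Smad2* and *Bmpr1a*, it is absent from 9 members, and 6 members have an H3K27me3 peak in at least 1 replicate.

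Of the ligands, the TGF-β isoforms, activin B and BMP4 had the active state. *Tgfb1*, which encodes the most widely expressed isoform, had H3K4me3 peaks of 15.9-fold and 13.6-fold enrichment in replicates 1 and 2, H3K27ac peaks of 7.28-fold and 6.25-fold, and ATAC-seq peaks of 11.4-fold and 6.36-fold. *Tgfb3* had the strongest H3K27ac of the ligands, at 16.7-fold and 12.4-fold, and *Tgfb2* followed with 12.6-fold and 10.2-fold. *Inhbb*, which encodes the subunit of activin B, had H3K27ac of 7.28-fold and 6.25-fold and H3K4me3 of 24.4-fold and 21.6-fold, and its ATAC-seq peaks of 5.83-fold and 5.89-fold were among the weakest of all members. Of these promoters only that of *Tgfb3* lay above the median H3K27ac enrichment of all protein-coding genes with a peak in the list, which was 13.9-fold and 12-fold in replicates 1 and 2. *Bmp4*, a ligand of the BMP type I receptors, had H3K27ac of 7.66-fold and 8.09-fold in peaks whose summits lay 1443 and 1463 bp downstream of the nearest start site.

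The other ligands had H3K4me3 with little or no H3K27ac. *Gdf11*, the closest relative of myostatin, had H3K4me3 of 16.2-fold and 11.8-fold, and *Inhba*, the subunit of activin A, 13.6-fold and 9.02-fold, and neither had an H3K27ac peak in any replicate. *Bmp2* and *Bmp6* had H3K27ac in replicate 1 only, at 5.37-fold and 4.22-fold, with H3K4me3 of 19-fold and 15.8-fold at *Bmp2* and 12.9-fold and 10-fold at *Bmp6*. *Bmp2* also had an H3K27me3 peak of 100 bp and 3.42-fold in replicate 2 alone, 92 bp from an H3K4me3 peak, with a −log10 q of 0.957. These 4 promoters were open in both replicates, and only replicate 1 placed any H3K27ac at them.

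*Bmp5* and *Bmp7* stood apart from the rest of the ligands. *Bmp5*, on chromosome 9, had no promoter peak in any of the 8 lists and 1 ATAC-seq peak in the gene body in replicate 1. *Bmp7* (chr2:172868012-172940321) had no H3K4me3 or H3K27ac peak, but it had the strongest ATAC-seq peak of all members by the lower replicate, of 65.1-fold in replicate 1 and 51.4-fold in replicate 2. These peaks were narrow, at 196 and 216 bp, and their summits lay at −25 and −17 bp from a start site. H3K27me3 was listed at 2 places in replicate 1 and 4 in replicate 2, with the strongest peak at 3.75-fold and 5.48-fold, 746 and 1264 bp downstream of a start site. The H3K27me3 peaks at *Bmp7* had a −log10 q of 0.934 to 1.06 in replicate 1 and 1.51 to 4.75 in replicate 2. At the ATAC-seq peak itself, both H3K27me3 lists held a peak of only 1.66-fold and 1.69-fold.

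*Mstn*, which encodes myostatin, had the weakest H3K4me3 of the 33 marked members. The gene lies at chr1:53061640-53068079. Its H3K4me3 peaks had 4.09-fold enrichment in replicate 1 and 3.21-fold in replicate 2, and the lower value exceeded that of 0.75% of the genes with H3K4me3 in both replicates. The peak of replicate 1 covered 1416 bp from the start site on, and that of replicate 2 was split into 2 pieces of at most 368 bp. H3K27ac was listed in replicate 1 only, at 4.6-fold and 1273 bp downstream of a start site. The ATAC-seq peaks were weak as well, at 5.79-fold and 7.4-fold, and their summits lay upstream, at −810 and −817 bp from the start site. At a −log10 q of at least 5, *Mstn* kept its ATAC-seq call and lost its H3K4me3 call.

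The bases before the start sites are shown to set the promoter of *Mstn* beside those of *Gdf11*, its relative with H3K4me3 alone, and of *Bmp5*, without any peak. Each is the 250 bases before the RefSeq start site on GRCm38.p6, on the strand of the gene, with CpG dinucleotides in capitals. *Mstn* is chr1:53061390-53061639 (+ strand), *Gdf11* chr10:128891719-128891968 (− strand) and *Bmp5* chr9:75775115-75775364 (+ strand).
Mstn: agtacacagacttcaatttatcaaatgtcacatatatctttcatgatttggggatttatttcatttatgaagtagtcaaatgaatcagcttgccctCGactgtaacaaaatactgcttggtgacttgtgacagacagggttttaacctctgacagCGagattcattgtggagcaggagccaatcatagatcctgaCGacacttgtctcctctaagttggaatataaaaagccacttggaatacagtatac
Gdf11: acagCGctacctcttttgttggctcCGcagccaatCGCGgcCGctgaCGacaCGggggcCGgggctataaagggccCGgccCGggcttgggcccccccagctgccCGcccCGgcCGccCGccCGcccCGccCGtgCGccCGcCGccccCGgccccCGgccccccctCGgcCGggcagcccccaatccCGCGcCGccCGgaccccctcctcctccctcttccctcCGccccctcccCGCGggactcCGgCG
Bmp5: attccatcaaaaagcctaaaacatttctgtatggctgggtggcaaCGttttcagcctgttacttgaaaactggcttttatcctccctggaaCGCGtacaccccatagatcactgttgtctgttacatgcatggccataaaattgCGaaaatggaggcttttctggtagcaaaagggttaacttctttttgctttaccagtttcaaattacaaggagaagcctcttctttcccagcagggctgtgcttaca
The *Gdf11* stretch holds 33 CpG dinucleotides, an observed over expected ratio of 0.886 that exceeded 87.4% of the 32851 promoters in the RefSeq table. The *Mstn* stretch holds 3, with a ratio of 0.326, and that of *Bmp5* holds 4, with a ratio of 0.351, both below the median ratio of 0.373 over all promoters. *Mstn* has 3 copies of GTCT or AGAC, the core letters bound by Smad proteins on either strand, which occur in 82.9% of all promoters of this length, and 1 AP-1 motif (TGANTCA), which 6.75% hold. *Bmp5* has 1 copy of the Smad core, and *Gdf11* has none but holds 1 E-box (CAGCTG), as 13% of promoters do. The table has entries for 25 of the 36 members. It has none for *Tgfb3*, *Bmp2*, *Bmp7*, *Tgfbr3*, *Acvrl1*, *Smad2*, *Smad4*, *Smad7*, *Fst*, *Nog* and *Chrdl2*.

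Of the 11 receptors, 10 had the active state. When promoters were taken as 1 kb either side, 9 had H3K27ac, against 45.4% of all protein-coding genes. *Tgfbr1* and *Tgfbr2*, the type I and type II receptors of TGF-β, had H3K27ac of 26.1-fold and 16.6-fold, and of 21.8-fold and 15.1-fold. Their H3K4me3 was 26.8-fold and 20.6-fold at *Tgfbr1*, and 29.2-fold and 21.5-fold at *Tgfbr2*. *Acvr2b*, the type II receptor that binds myostatin, had H3K4me3 of 27.8-fold and 17.4-fold and H3K27ac of 14.9-fold and 13.6-fold, and *Acvr1b*, a type I receptor of activins, had strong H3K4me3 (34.8-fold and 24.9-fold) with weak H3K27ac (5.37-fold and 7.36-fold). *Bmpr1a*, a type I receptor of BMPs, had H3K27ac of 24.5-fold and 25.7-fold, the strongest of the receptors by the lower replicate, which exceeded 90.8% of the promoters with H3K27ac in both replicates. The replicates of these receptors kept the same call throughout.

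*Acvr1*, the type I receptor known for its mutation in fibrodysplasia ossificans progressiva, had the second highest H3K4me3 of all members by the lower replicate, 38.9-fold and 30.1-fold. The strongest ATAC-seq peaks in the promoter windows of *Acvr1*, 20.1-fold and 19.6-fold, lay at the edge of a window, with summits 2896 and 2915 bp downstream of a start site inside the gene, and the ATAC-seq peak at its main start site had 12.8-fold and 11-fold enrichment. The promoter window of *Acvr1* also holds a start site of *Upp2*. At *Tgfbr1*, ATAC-seq reached 19.8-fold and 17.8-fold, in peaks of 963 and 964 bp over the start site.

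The exceptions among the receptors were *Acvrl1*, *Bmpr1b* and, for ATAC-seq, *Bmpr2*. *Acvrl1*, which encodes a type I receptor known from endothelial cells, had H3K4me3 of 5.38-fold and 5.35-fold, and its H3K27ac of 4.39-fold and 4.22-fold was the weakest among the marked members, with summits 2804 and 2850 bp downstream of the nearest start site. *Bmpr1b* had H3K4me3 of 15.4-fold and 11-fold, open chromatin of 18-fold and 17-fold, no H3K27ac, and an H3K27me3 peak of 187 bp and 3.38-fold in replicate 1 alone, with a −log10 q of 0.454. *Bmpr2*, the type II receptor of BMPs, had an ATAC-seq peak of 80-fold in replicate 1 that replicate 2 did not list. This peak was 118 bp wide and lay at a start site inside the gene, while the peak at the main start site had 15.1-fold and 15-fold enrichment in replicates 1 and 2. A peak of 116 bp and 34-fold was likewise listed in replicate 1 only at *Bmp6*, with its summit 2592 bp downstream of a start site inside the gene. Over the genome, replicate 1 listed 2340 ATAC-seq peaks of at least 30-fold, of median width 120 bp, and 7.35% of them overlapped a peak of replicate 2, which listed 82 such peaks. The *Bmp7* peak described above was found in both.

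By the lower replicate, the strongest H3K27ac of the members was found at 2 Smads, *Smad5* and *Smad2*. *Smad5*, which carries BMP signals, reached 27.6-fold and 28.3-fold, above 94.8% of marked promoters by the lower replicate, *Smad2*, which carries TGF-β and activin signals, 26.4-fold and 25.4-fold, and *Smad1*, which also carries BMP signals, 29.1-fold and 21.7-fold. *Smad4*, the partner shared by all receptor-regulated Smads, had the strongest H3K4me3 by the lower replicate, 37.8-fold and 31.1-fold, and *Smad1* the strongest in replicate 1, 51-fold and 29.7-fold. *Smad3*, the other Smad of TGF-β and activins, had 36-fold and 27.3-fold H3K4me3 with 19.2-fold and 15.8-fold H3K27ac. The median H3K27ac of the 7 Smads with a peak was 21.8-fold in replicate 1 and 21.7-fold in replicate 2, against 7.28-fold over the 8 ligands listed in replicate 1 and 8.09-fold over the 5 listed in replicate 2, and the ranges of both roles overlapped.

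The inhibitory Smads differed from each other. *Smad7*, which inhibits TGF-β and BMP receptors, had H3K27ac of 20.7-fold and 16.2-fold, and *Smad6*, which acts mainly on BMP signals, 7.66-fold and 4.91-fold, the second lowest of the marked members. Their H3K4me3 was 30.3-fold and 23.2-fold at *Smad7* and 25.3-fold and 15.5-fold at *Smad6*. *Smad9*, a further BMP Smad, had H3K4me3 of 14.7-fold and 12.6-fold, ATAC-seq peaks of 9.33-fold and 9.54-fold and no H3K27ac. *Smad9* was thus the only Smad without an H3K27ac peak at the promoter.

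Of the 4 members with H3K27me3 in both replicates, 3 were antagonists, the other being *Bmp7*. *Fst* (chr13:114452290-114458951) encodes follistatin, which binds activins and myostatin. It had H3K4me3 of 17.9-fold and 11.1-fold, no H3K27ac, and 3 H3K27me3 peaks in replicate 1 and 6 in replicate 2, with the strongest at 4.5-fold and 4.11-fold. Of these, 2 and 4 overlapped the H3K4me3 peaks of the same replicate, and all 3 peaks of replicate 1 overlapped a peak of replicate 2. Both marks thus lay in part on the same bases of the *Fst* promoter, of which H3K27me3 peaks covered 8.24% and 17.2%.

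*Nog* (chr11:89300638-89302332) encodes noggin, which binds BMPs. It had H3K4me3 of 17.7-fold and 14.2-fold, no H3K27ac, and 1 H3K27me3 peak in replicate 1 and 3 in replicate 2, with the strongest at 3.75-fold and 4.6-fold. Here the marks lay side by side, with no overlap and a gap of 728 and 54 bp to the nearest H3K4me3 peak, and the peak found in both replicates lay 1987 and 1984 bp downstream of the start site, past the end of the gene, which is 1695 bp long. Since *Fst* and *Nog* are short, their promoter windows cover the whole gene, and no gene body peak could be listed for them. The *Nog* window also holds a start site of *Gm2018* and the *Fst* window that of *Gm47040*, neither of them protein-coding. Of the members, 12 have a window with a start site of any other gene.

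*Grem1* (chr2:113746164-113758646) encodes gremlin, a further BMP antagonist. Its H3K4me3 was listed in replicate 1 only, at 3.66-fold, as was a single ATAC-seq peak of 66 bp and 4.77-fold, and H3K27ac was absent. H3K27me3 was listed at 1 place in replicate 1 (4.13-fold) and 4 in replicate 2 (up to 4.45-fold), and 1 of these was shared, at the start site. *Grem1* was thus the antagonist with the fewest active marks. *Chrd*, which encodes chordin, had the active state instead, with H3K4me3 of 22.3-fold and 15.5-fold and H3K27ac of 11.5-fold and 11.4-fold, in a window that also holds a start site of *Thpo*. *Chrdl2*, a chordin-like antagonist used as a marker of MuSCs, had H3K4me3 of 17.8-fold and 10.4-fold and weak H3K27ac of 6.13-fold and 5.27-fold. The strongest *Chrdl2* H3K27ac peak lay within 33 bp of a start site in replicate 1 and, in replicate 2, 330 bp downstream of a start site inside the gene.

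**Figure D3:**
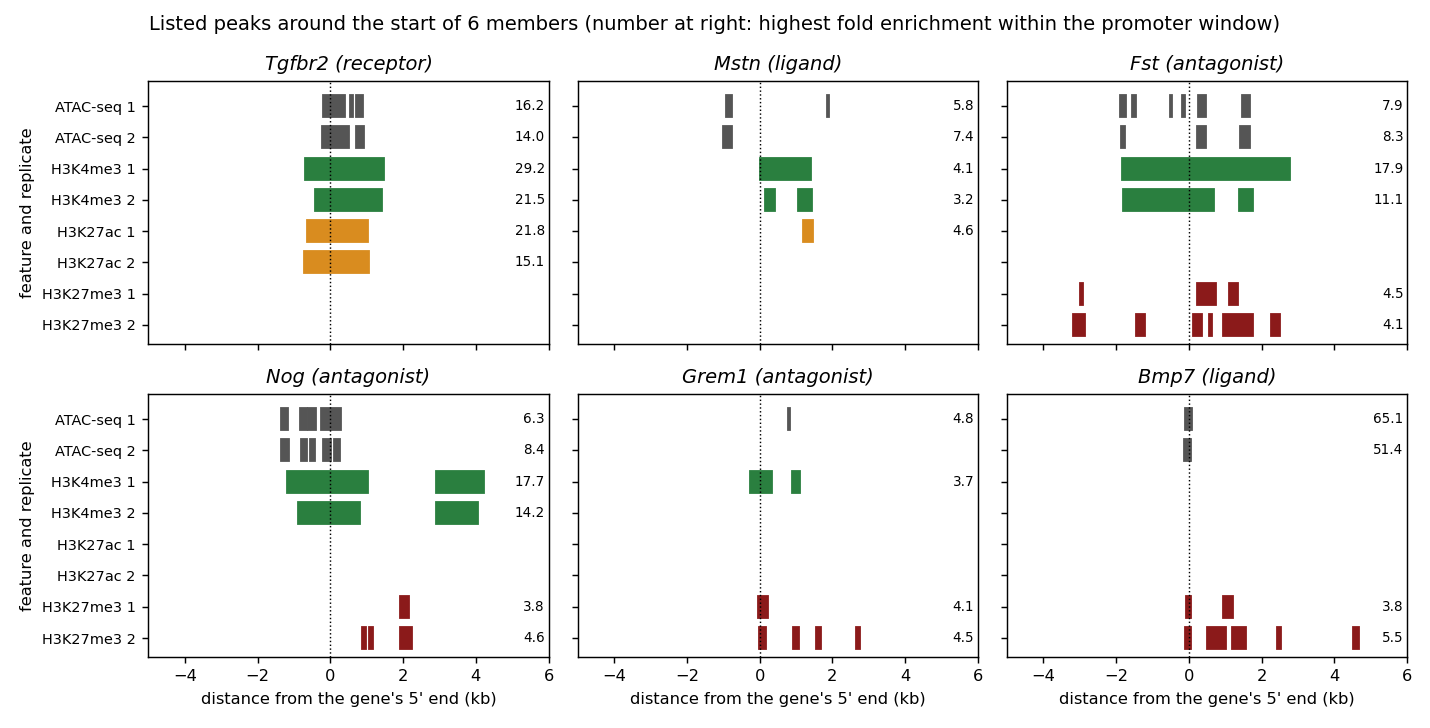
Listed peaks (bars) in the 8 lists (y axis) against the distance from the 5′ end of the gene (x axis, kb, downstream to the right) for 6 members, with the highest fold enrichment within the promoter window at the right. *Tgfbr2* has H3K4me3 and H3K27ac over the start and no H3K27me3. *Mstn* has short, weak peaks, *Fst*, *Nog*, *Grem1* and *Bmp7* have H3K27me3 in both replicates, and among these *Fst* and *Nog* have H3K4me3 in both replicates.

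The 250 bases before the start site are given for *Grem1* (chr2:113758649-113758898, − strand) as the H3K27me3 promoter of which the sequence was at hand, and for *Smad5* (chr13:56702760-56703009, + strand) as that with the strongest H3K27ac, with CpG dinucleotides again in capitals.
Grem1: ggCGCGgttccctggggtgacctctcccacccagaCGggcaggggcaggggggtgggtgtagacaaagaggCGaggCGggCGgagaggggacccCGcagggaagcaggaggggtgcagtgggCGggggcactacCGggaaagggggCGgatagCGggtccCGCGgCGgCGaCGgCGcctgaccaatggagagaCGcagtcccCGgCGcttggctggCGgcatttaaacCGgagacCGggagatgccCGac
Smad5: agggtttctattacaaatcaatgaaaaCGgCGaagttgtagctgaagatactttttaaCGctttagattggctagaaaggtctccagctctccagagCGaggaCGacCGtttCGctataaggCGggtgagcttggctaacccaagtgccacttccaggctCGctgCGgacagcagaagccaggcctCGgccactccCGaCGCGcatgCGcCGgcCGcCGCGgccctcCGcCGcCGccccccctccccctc
Both are rich in CpG, with 24 dinucleotides and an observed over expected ratio of 0.797 at *Grem1*, above 80.8% of all promoters, and 22 and a ratio of 0.992 at *Smad5*, above 93.9%. The GC content was 72% at *Grem1* and 60% at *Smad5*, against a median of 52.4%. *Grem1* holds 4 copies of the Smad core letters and *Smad5* 1, and neither holds the E-box or the AP-1 motif. Both ratios, like that of *Gdf11*, lay above the median of all promoters.

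The H3K27me3 peaks had low −log10 q values throughout. None of the peaks at member promoters reached a −log10 q of 5. At that limit, H3K27me3 marked 0.501% of all protein-coding genes in both replicates. At a −log10 q of at least 1.3, *Fst*, *Nog* and *Grem1* kept a peak in both replicates and *Bmp7* kept its peaks in replicate 2 only, so that 3 members counted as marked, against 3.25% of protein-coding genes. The median enrichment of the 5 members with a peak in each list was 3.75-fold in replicate 1 and 4.45-fold in replicate 2, below and above the medians of 4.13-fold and 4.11-fold over all protein-coding genes with such a peak.

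Several members had wide H3K4me3 peaks. In 9 of 36 members (25%) the promoter held an H3K4me3 peak of at least 3 kb in both replicates, against 2.79% of protein-coding genes. Among genes with H3K4me3 in both replicates, these are 9 of 33 members, against 4.58% of protein-coding genes. The limit of 3 kb was chosen after the values had been seen, with *Tgfb1* just inside it, at 3040 bp in the narrower replicate, and *Inhbb* just outside, at 2718 bp. The 9 members are the TGF-β ligands *Tgfb1*, *Tgfb2* and *Tgfb3*, *Bmp4*, the receptors *Acvr2a* and *Bmpr2*, and *Smad3*, *Smad6* and *Smad7*. By the narrower replicate the widest peak was that of *Bmp4*, of 5869 and 5583 bp, wider than at 99.7% of marked promoters, followed by *Smad7* with 6060 and 4509 bp and *Smad3* with 4766 and 4407 bp. The widest peaks were not all among the most enriched. *Bmp4* had H3K4me3 of 14.6-fold and 13.7-fold, below the gene-wide medians of 23.9-fold and 17.6-fold, whereas *Smad3* and *Smad7* were above both. Such a peak was found at 8 of the 26 marked members with at least 2 annotated start sites (30.8%) and at 1 of the 7 with 1 (14.3%), against 4.58% and 4.58% of all marked genes. The part of the number of start sites was not tested.

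**Figure D4:**
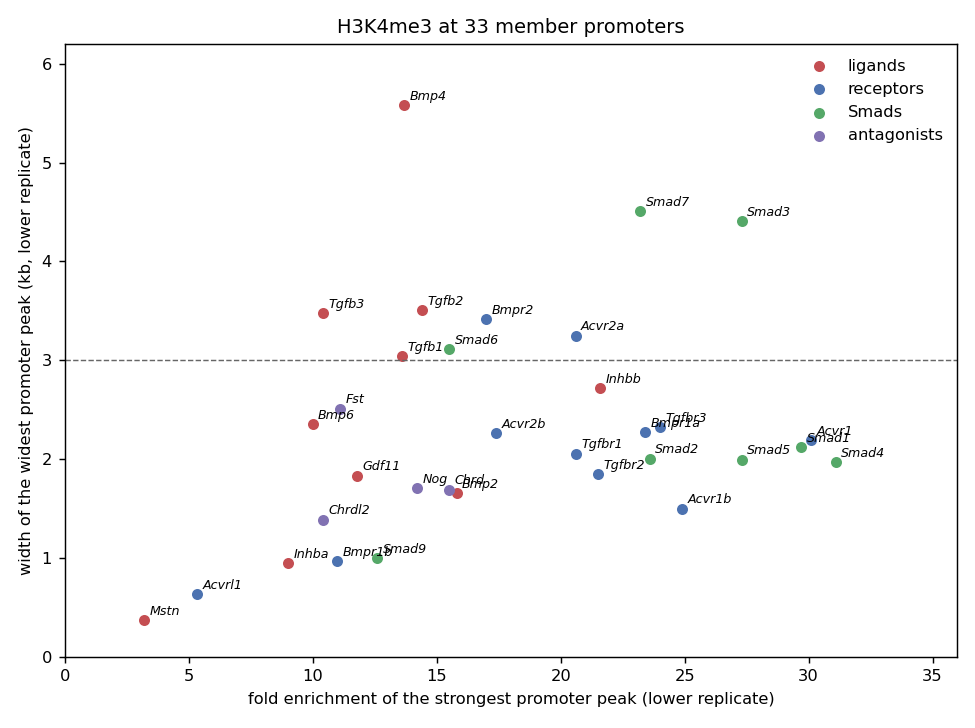
Width of the widest promoter H3K4me3 peak (y axis, kb) against the fold enrichment of the strongest (x axis), each as the lower of the replicates, for the 33 members with H3K4me3 in both, coloured by role. The dashed line is 3 kb. *Bmp4*, *Smad7* and *Smad3* are the widest, *Smad4*, *Acvr1* and *Smad1* the most enriched, and *Mstn* is lowest on both axes.

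Away from promoters, more members had ATAC-seq peaks than peaks of any histone mark, as did protein-coding genes in general. A gene body peak is one that overlaps the gene and no promoter of any annotated gene. ATAC-seq peaks of this kind were listed in both replicates for 22 of 36 members (61.1%, against 28.4% of protein-coding genes), and H3K27ac for 6 (16.7%, against 5.85%): *Tgfb2*, *Bmp6*, *Tgfbr3*, *Acvr1*, *Smad3* and *Smad6*. At a −log10 q of at least 5 the H3K27ac count was 3 (against 3.56%), and with a peak in either replicate it was 10 (against 9.82%). H3K4me3 was listed in both for *Tgfbr3* and *Smad7* (5.56%, against 3.17%), and H3K27me3 for no member (against 0.903%). The H3K4me3 peaks of the replicates overlapped at *Smad7* but not at *Tgfbr3*. By role, 10 of 11 receptors and 7 of 8 Smads had gene body ATAC-seq peaks in both replicates, against 4 of 12 ligands and 1 of 5 antagonists, *Chrdl2*, which had 5 in each replicate. The members are long, with a median length of 42647 bp against 17425 bp for all protein-coding genes, and the receptors are longest, with a median of 91068 bp, while that of the antagonists was 9258 bp. The part of gene length in these shares was not tested.

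*Smad3* had the most open sites, with 22 and 23 gene body ATAC-seq peaks in replicates 1 and 2, of which 19 of replicate 1 overlapped a peak of replicate 2, and it had 10 and 5 H3K27ac peaks. *Tgfbr3*, which encodes the coreceptor betaglycan, had 18 and 16 ATAC-seq and 12 and 6 H3K27ac peaks, and *Acvr1* 17 and 16 ATAC-seq but only 2 and 1 H3K27ac peaks. *Tgfbr2* had 12 and 11 ATAC-seq peaks and no H3K27ac in its body. Of the other members with gene body H3K27ac in both replicates, *Tgfb2* had 8 ATAC-seq peaks in each replicate and 3 and 1 H3K27ac peaks, *Bmp6* had 12 and 6 ATAC-seq and 2 and 1 H3K27ac peaks, and *Smad6* had 13 and 8 ATAC-seq peaks and 1 H3K27ac peak in each. *Bmpr1b*, the longest at 332290 bp, had 7 and 3 ATAC-seq peaks and no H3K27ac in its body, and *Bmp5*, at 124947 bp, had 1 ATAC-seq peak in replicate 1 only.

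**Figure D5:**
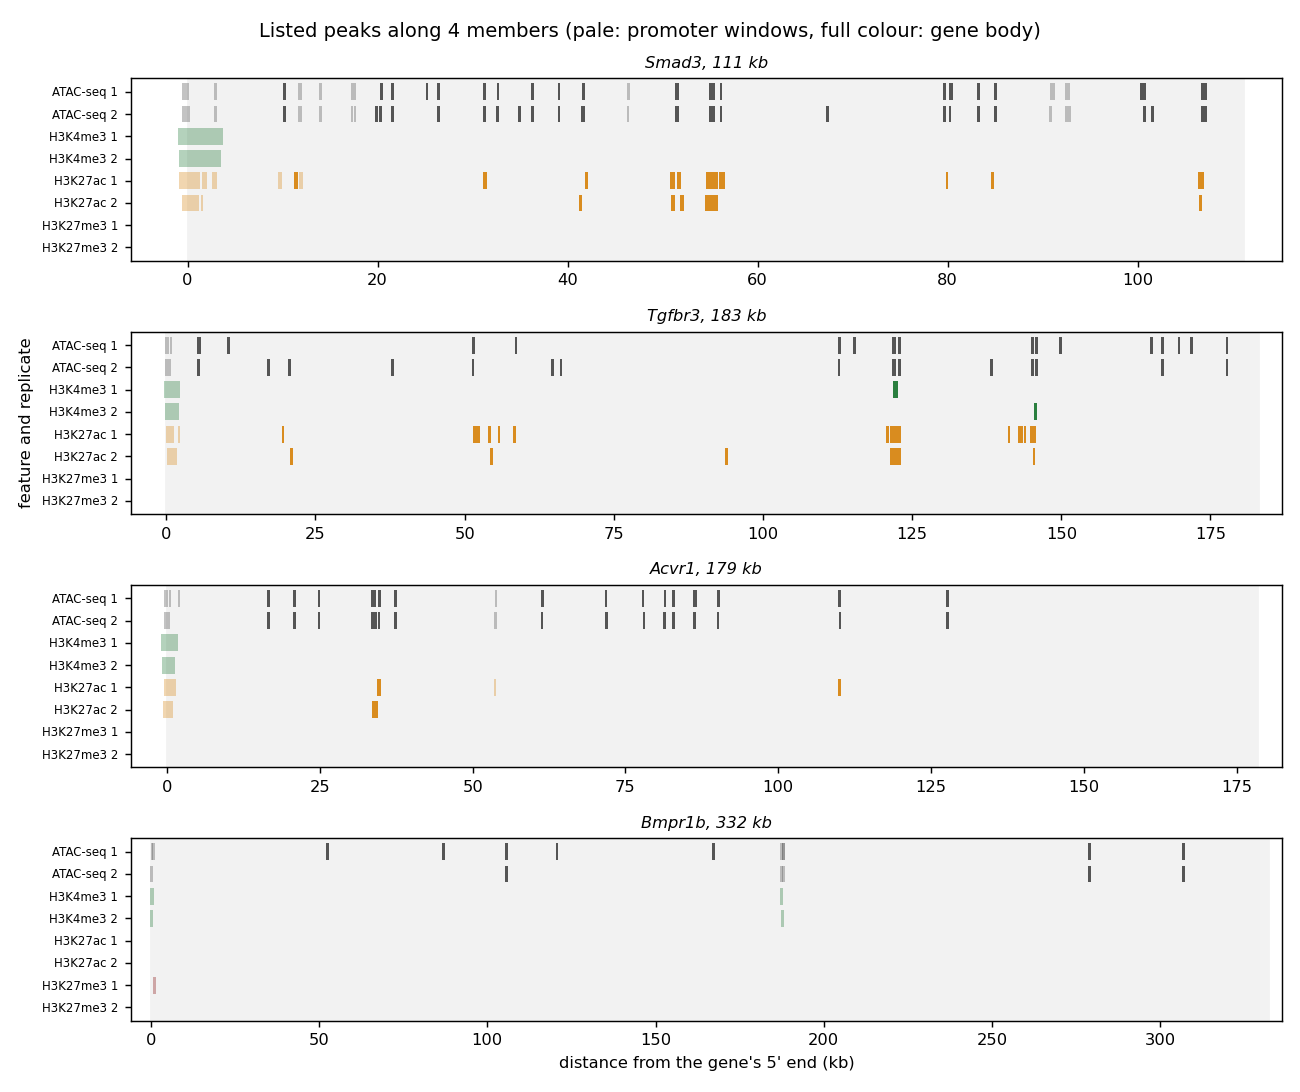
Listed peaks (bars) in the 8 lists (y axis) along *Smad3*, *Tgfbr3*, *Acvr1* and *Bmpr1b*, against the distance from the 5′ end (x axis, kb), with the gene shaded in grey. Pale bars touch a promoter window and full bars are gene body peaks. *Smad3* has 10 and 5 and *Tgfbr3* 12 and 6 gene body H3K27ac peaks in replicates 1 and 2, and *Bmpr1b* has no H3K27ac.

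A site with H3K27ac and ATAC-seq in both replicates in the gene body was found in 4 members, *Smad3* with 4 acetylated peaks, *Tgfbr3* with 3, and *Acvr1* and *Smad6* with 1 each. Such a site was found in 1009 protein-coding genes (4.6%), and at least 3 were found in 164 (0.748%) and at least 4 in 89 (0.406%). Among the 5773 protein-coding genes at least as long as the median member, 13.6% had one, as did 4 of the 18 members of that length. The strongest lay in *Tgfbr3* at chr5:107166525-107168362, with H3K27ac of 13.5-fold and 13.6-fold and ATAC-seq of 18.1-fold and 18.2-fold. The 4 peaks of *Smad3* had H3K27ac of 5.75-fold to 6.95-fold in replicate 1 and 2.95-fold to 6.25-fold in replicate 2.

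The sites in *Smad3* are shown because it held the most. They have 3 separate ATAC-seq summits, since 2 neighbouring H3K27ac peaks share 1, and all lie in introns. Not every printed window lies on acetylated bases of both replicates. The window of site 1 ended before the H3K27ac peak paired with it in replicate 2, which began at 63651258. The summit of site 3 lay between the 2 neighbouring H3K27ac peaks of replicate 1. Each sequence is the 300 bases around the summit of replicate 1 on the + strand of GRCm38.p6, while the gene lies on the − strand, and capitals mark the Smad core (GTCT or AGAC), the E-box (CAGCTG) and the AP-1 motif (TGANTCA).
Smad3 site 1, chr9:63650905-63651204: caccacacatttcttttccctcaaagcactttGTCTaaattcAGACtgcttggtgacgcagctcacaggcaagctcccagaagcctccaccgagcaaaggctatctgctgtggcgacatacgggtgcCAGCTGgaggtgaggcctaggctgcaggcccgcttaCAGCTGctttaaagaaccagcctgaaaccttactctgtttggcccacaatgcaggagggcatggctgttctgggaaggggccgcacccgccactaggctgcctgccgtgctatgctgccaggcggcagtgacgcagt
Smad3 site 2, chr9:63702684-63702983: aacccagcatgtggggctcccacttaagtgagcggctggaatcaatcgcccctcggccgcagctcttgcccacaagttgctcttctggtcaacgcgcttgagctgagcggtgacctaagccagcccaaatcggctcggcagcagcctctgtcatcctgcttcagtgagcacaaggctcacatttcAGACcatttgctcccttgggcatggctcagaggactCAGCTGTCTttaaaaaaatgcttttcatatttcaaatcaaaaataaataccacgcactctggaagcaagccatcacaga
Smad3 site 3, chr9:63706438-63706737: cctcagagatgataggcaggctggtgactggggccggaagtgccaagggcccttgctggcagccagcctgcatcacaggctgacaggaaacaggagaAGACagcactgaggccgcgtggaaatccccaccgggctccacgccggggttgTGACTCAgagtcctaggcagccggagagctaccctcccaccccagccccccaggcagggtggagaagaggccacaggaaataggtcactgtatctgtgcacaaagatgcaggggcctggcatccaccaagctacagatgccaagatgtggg
The first and second hold 2 copies of the Smad core each and the third 1. The letters occur in 90.6% of the 1550 windows of this length at such sites of protein-coding genes, where the median count is 2, so that the *Smad3* sites were ordinary in this. The E-box CAGCTG, the form that MYOD and related myogenic factors bind, occurs at 2 places in the first and 1 in the second, where it shares its last base with a GTCT, against 48.8% of such windows with at least 1. The AP-1 motif occurs once in the third, as in 33.7% of such windows. A match describes letters and not a bound site.

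The remaining genes of the pathway, in lists drawn up by role, were counted in the same way. Of all protein-coding genes, 46.6% had promoter H3K27ac in both replicates, 4.81% had H3K27me3, and 39.2% lacked H3K4me3 in at least 1 replicate. The state of H3K4me3 and H3K27ac without H3K27me3 was held by 45.4%. All 13 intracellular regulators, among them the ubiquitin ligases *Smurf1* and *Smurf2* and the corepressors *Ski* and *Skil*, had the state of H3K4me3 and H3K27ac without H3K27me3. *Ppm1a*, a phosphatase of Smads, had the strongest H3K27ac of them by the lower replicate, 45.2-fold and 34.9-fold. Of 21 further ligands, 4 had H3K27ac, *Inha*, *Lefty1*, *Gdf9* and *Gdf15*, and 4 had H3K27me3, *Nodal*, *Gdf6*, *Gdf7* and *Gdf10*, while 11 lacked H3K4me3 in at least 1 replicate. *Gdf6*, for example, had H3K4me3 of 16-fold and 12.8-fold with H3K27me3 of 4.59-fold and 5.02-fold. Of 8 further receptors and coreceptors, 3 had H3K27ac, the coreceptors *Rgma* and *Rgmb* and the decoy receptor *Bambi*, and none had H3K27me3.

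Of 24 further extracellular regulators, 10 had H3K27ac, including the latency proteins *Ltbp1*, *Ltbp3* and *Ltbp4*, and 3 had H3K27me3, *Sost*, *Bmper* and *Ltbp2*. The shares of all protein-coding genes were 46.6% and 4.81%. *Bmper* carried all 3 marks in both replicates, with H3K27ac of 8.43-fold and 6.25-fold and H3K27me3 of 3.38-fold and 3.42-fold. Of 15 common targets of the pathway, 8 had H3K27ac, near the 46.6% of all protein-coding genes. Among the 8 were the BMP targets *Id1* (10.3-fold and 9.93-fold), *Id2* (15.7-fold and 11.6-fold) and *Id3* (15-fold and 9.33-fold). The TGF-β targets *Pmepa1* (16.5-fold and 12.5-fold) and *Klf10* (29.5-fold and 18-fold) were also among them. *Ccn2* and *Col1a1*, further targets of TGF-β, had no H3K27ac peak in either replicate.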

How the data were processed

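Per the study's methods and the submitters' processing notes, the authors trimmed reads with Trim Galore 0.6.10, aligned them to mm10 with BWA 0.7.17-r1188, filtered out duplicates, blacklisted regions and poorly mapped reads (SAMtools 1.5, bedtools), corrected ATAC-seq ends for the Tn5 offset (deepTools 3.5.5) and called peaks with MACS2 2.2.6 in each library. The deposited lists give positions, the fold enrichment at the summit as a linear ratio, and p-values and q-values as −log10, all as the authors made them. The H3K27me3 lists were called with a looser limit. The lists hold no read numbers, so depth is unknown and no interval is given.

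Peaks on the 21 assembled chromosomes were overlapped with GENCODE M21 (Python 3.11.15, numpy 2.4.6, pandas 2.3.3, pysam 0.24.0). Tested on simulated data, the overlap step recovered 700 of 700 planted promoters and 400 of 400 planted gene bodies. Each value is that of the strongest promoter peak, and members are ranked by the lower replicate. Values are given for members with H3K27me3, without H3K4me3 or with a peak in 1 replicate, for the 3 highest and 2 lowest per feature, for those with the most gene body peaks and for 12 members fixed by name. The members and lists were chosen with earlier results of these data known, so that no set test was run. Promoter sequences are from RefSeq (GRCm38.p6), and with 25 of 36 members in that table a check of CpG content over the members would be void. Alternatives were the promoter width, the start sites used, the peak limit, the overlap and the replicates. Of the 272 samples, 264 (editing outcomes, ChIP inputs and others) were not analysed here.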

Additional observations from a re-analysis of the deposited data

How the results depend on the processing

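Of 176 alternative counts, 150 stayed within 1.5 times the reported one and 26 did not, most of them counts of 5 or fewer. The H3K27me3 calls rest on the peak limit and the replicates. With a −log10 q of at least 5, H3K27me3 marked 0 members, 0 ligands and 0 antagonists, against 0.501% of all protein-coding genes. H3K4me3 with H3K27me3 was found at 0, against 0.406%. At 1.3, H3K27me3 marked 0 ligands, against 3.25%. With promoters of 1 kb, 1 member had H3K4me3 with H3K27me3, against 3.17%. With a peak in either replicate, 5 members had both marks, 3 had H3K4me3 alone, 8 ligands had H3K27ac, and 2 ligands and 1 receptor had H3K27me3. The shares of all protein-coding genes were then 7.17%, 8.31%, 50.5% and 8.49%, in the same order of marks. Without 1 replicate, the counts ranged from 3 to 4 members with both marks, 3 to 6 with H3K4me3 alone, 5 to 8 ligands with H3K27ac, 1 to 2 ligands and 0 to 1 receptors with H3K27me3. The gene-wide shares were 4.91% to 5.94% with both marks and 9.92% to 9.97% with H3K4me3 alone. They were 47% to 50.1% with H3K27ac and 5.66% to 7.64% with H3K27me3. Antagonists with H3K27ac fell to 1 with the 5′ end of the gene as the only start site, which leaves out *Chrdl2*, and to 1 without the 2 members that share a window with another protein-coding gene, *Acvr1* and *Chrd*, an alternative added after seeing the data. The shares of all protein-coding genes were 43.9% and 46.6%. Members with gene body H3K27ac numbered 3 with a −log10 q of at least 5 (against 3.56%) and 10 with a peak in either replicate (against 9.82%). Those with gene body H3K4me3 numbered 1 with a −log10 q of at least 5, against 2.26%. They numbered 4 with promoters of 1 kb (against 4.77%), with a peak in either replicate (6.26%) or without replicate 2 (5.97%). Those with gene body H3K27me3 numbered 1 with either replicate (against 2.79%) or without replicate 1 (2.26%). Counts of ATAC-seq and H3K4me3 promoters were within 1.5 times under all alternatives run. No paired analysis was possible because no result comes from a test.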
